A study of Mus musculus with 54 samples.

Results

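The 10 genes described here carry signals from Toll-like receptors (TLRs) to the cell interior: the adaptors Myd88, Tirap, Ticam1 and Ticam2, the IRAK kinases Irak1, Irak2, Irak3 and Irak4, the TLR trafficking protein Unc93b1 and the co-receptor Cd14. They were chosen by name for their place in the pathway, and they are 10 of the 52636 genes listed in each deposited table. All 10 were among the 14970 genes left by a filter on low counts. RNA was sequenced from mouse bone marrow-derived macrophages, grown out of marrow with M-CSF. Cells labelled N4bp1 KO (KO) or WT were exposed to Pam3CSK4 (Pam3) or R837 for 2, 4, 6 or 8 h or were left untreated. The 9 conditions in each genotype made 18 groups with 3 libraries each, 54 libraries altogether. N4bp1 codes for an RNA-binding protein known as a brake on NF-kB, and the comparisons ask how each ligand and the loss of N4bp1 changed these 10 transcripts.

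The KO groups were N4bp1 KO cells untreated, with Pam3 at 2, 4, 6 and 8 h, and with R837 at the same times, and the WT groups had the same conditions. The text on extraction is the same for all libraries and names wild-type C57BL/6N mice, so the strain of the KO mice, how N4bp1 was deleted, and the age and sex of the mice are not given in any source used here. Pam3, a synthetic lipopeptide, is a ligand of the TLR2 and TLR1 pair. R837, also called imiquimod, is a small-molecule ligand of TLR7. In bulk RNA, fewer cells of a type and less RNA per cell cannot be told apart.

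Most TLRs, and the receptors of the interleukin 1 family, signal through MYD88. Bound receptors gather MYD88, which recruits IRAK4 and then IRAK1 and IRAK2 into a complex called the Myddosome, and IRAK1 and IRAK2 pass the signal to TRAF6 and on to NF-kB and MAP kinases. TIRAP is a sorting adaptor that brings MYD88 to receptors such as TLR2 and TLR4. TICAM1 (TRIF) serves TLR3 and, bridged by TICAM2 (TRAM), TLR4, and leads to type I interferon. IRAK3 (IRAK-M) is a member of the IRAK family best known in macrophages as a brake on the pathway. UNC93B1 escorts the nucleic acid-sensing TLRs, TLR7 among them, from the endoplasmic reticulum to endosomes. CD14 sits on the cell surface and hands microbial ligands to TLRs.

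Levels are in CPM, counts scaled to the same total in every library by TMM library sizes. CPM of cell type markers, Y-linked transcripts and Xist used the raw library totals instead. Differences are log2 ratios ± SE from edgeR's quasi-likelihood test fitted to all 54 libraries. A gene passed at a Benjamini-Hochberg adjusted p under 0.05 over all 14970 genes. Library totals ran from 20.03 to 45.89 M counts. The targeted gene N4bp1 was lower in all KO libraries than in all WT libraries at each of the 9 conditions, where over all conditions KO libraries ran from 30.1 to 205 CPM and WT libraries from 63.6 to 610 CPM. Adgre1 (F4/80), a core marker of macrophages, was high in every library. It lay between 2186 and 4251 CPM in the KO libraries and between 2133 and 4432 CPM in those of WT cells. Not all core markers were high throughout, and Mertk ran from 1.05 to 87.9 CPM in KO and from 5.02 to 112 CPM in WT libraries. Of the core markers, Cd163 reached no more than 0.582 CPM in any KO library and 1.93 CPM in any WT library. KO Pam3 8 h replicate 3 stood apart, with counts in 12263 genes against at least 16097 in the other libraries, of which KO Pam3 6 h replicate 3 had the fewest. Y-linked transcripts did not exceed 0.208 CPM in the KO libraries. Each WT condition held 1 library with 162 to 207 CPM, 1 with 57.3 to 77.7 CPM and 1 that did not exceed 0.16 CPM of them. Markers of B and plasma cells summed to 95.4 to 237 CPM in KO libraries, and in WT libraries to 19.5 to 60.1, 34.6 to 74.2 and 86.8 to 131 CPM in that order of Y-linked transcripts. Xist was at 80.8 to 134 CPM in the 9 middle WT libraries, so these hold transcripts of both sexes although the labels give each replicate its own mouse, and n = 3 below counts libraries.

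Promoter bases are shown for Myd88, Irak2 and Irak3, the 3 members outside Cd14 that rose in every treated group described below. Start-site windows from RefSeq's table for GRCm38.p6 were searched for 7 of the 10 members. Those of the other members were not searched, which does not mean that RefSeq's table lacks them. The bases lie just upstream of the RefSeq start site and outside annotated exons, and each is written 5′ to 3′ along the gene's own strand. The Myd88 stretch is chr9:119340042-119340268 (minus strand), Irak2 chr6:113638217-113638466 (plus strand) and Irak3 chr10:120202131-120202380 (minus strand). Capitals mark a match to GAAA, any 2 bases and GAAA again, the paired repeat of interferon-stimulated response elements.
Myd88: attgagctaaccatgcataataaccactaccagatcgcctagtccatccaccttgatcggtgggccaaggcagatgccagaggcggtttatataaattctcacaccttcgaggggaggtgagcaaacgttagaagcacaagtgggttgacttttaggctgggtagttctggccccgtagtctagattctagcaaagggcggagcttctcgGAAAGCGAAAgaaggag
Irak2: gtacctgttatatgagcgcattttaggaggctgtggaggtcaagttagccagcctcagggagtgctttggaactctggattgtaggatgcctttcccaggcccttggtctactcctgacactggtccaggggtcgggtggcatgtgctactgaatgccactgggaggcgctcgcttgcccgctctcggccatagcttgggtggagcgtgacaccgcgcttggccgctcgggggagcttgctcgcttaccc
Irak3: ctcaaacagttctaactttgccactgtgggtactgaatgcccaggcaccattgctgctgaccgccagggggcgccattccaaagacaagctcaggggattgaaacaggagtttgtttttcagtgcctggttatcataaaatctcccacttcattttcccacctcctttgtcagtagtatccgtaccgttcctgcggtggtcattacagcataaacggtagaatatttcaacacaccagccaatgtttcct
Both strands of the 250 bases before each start site were searched. The RefSeq start of Myd88 lies inside the gene span given for it below. The Myd88 match spans bases -40 to -31 from the RefSeq start. Of the 32851 RefSeq windows of 250 bases that were searched, which need not be all in RefSeq's table, 2.98% hold this paired repeat. The Myd88 match was the single match of any searched motif among the members' windows searched. The AP-1 motif TGANTCA, present in 6.75% of the windows, and the kappaB consensus, present in 5.0%, had no match in the windows of the 7 members, which says only that these letters are not there.

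At rest the 10 transcripts covered a wide range. Per kilobase of exon, untreated KO and WT cells gave 511 and 510.4 CPM per kb of Cd14, and 215 and 233 CPM per kb of Unc93b1. Myd88 followed at 53.7 and 51.8 CPM per kb in KO and WT cells. Irak1 was the most abundant IRAK per length at 24.5 and 24.7 CPM per kb. The lowest 4 per length in untreated WT cells were Irak4 at 9.92, Irak3 at 9.39, Ticam2 at 9.37 and Tirap at 8.30 CPM per kb. None of the 10 passed between untreated KO and WT cells by edgeR, where 0.882% of all genes passed (0.514% higher and 0.367% lower in KO cells), and none had an unadjusted p under 0.05 or passed by DESeq2 or limma voom.

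**Figure D1:**
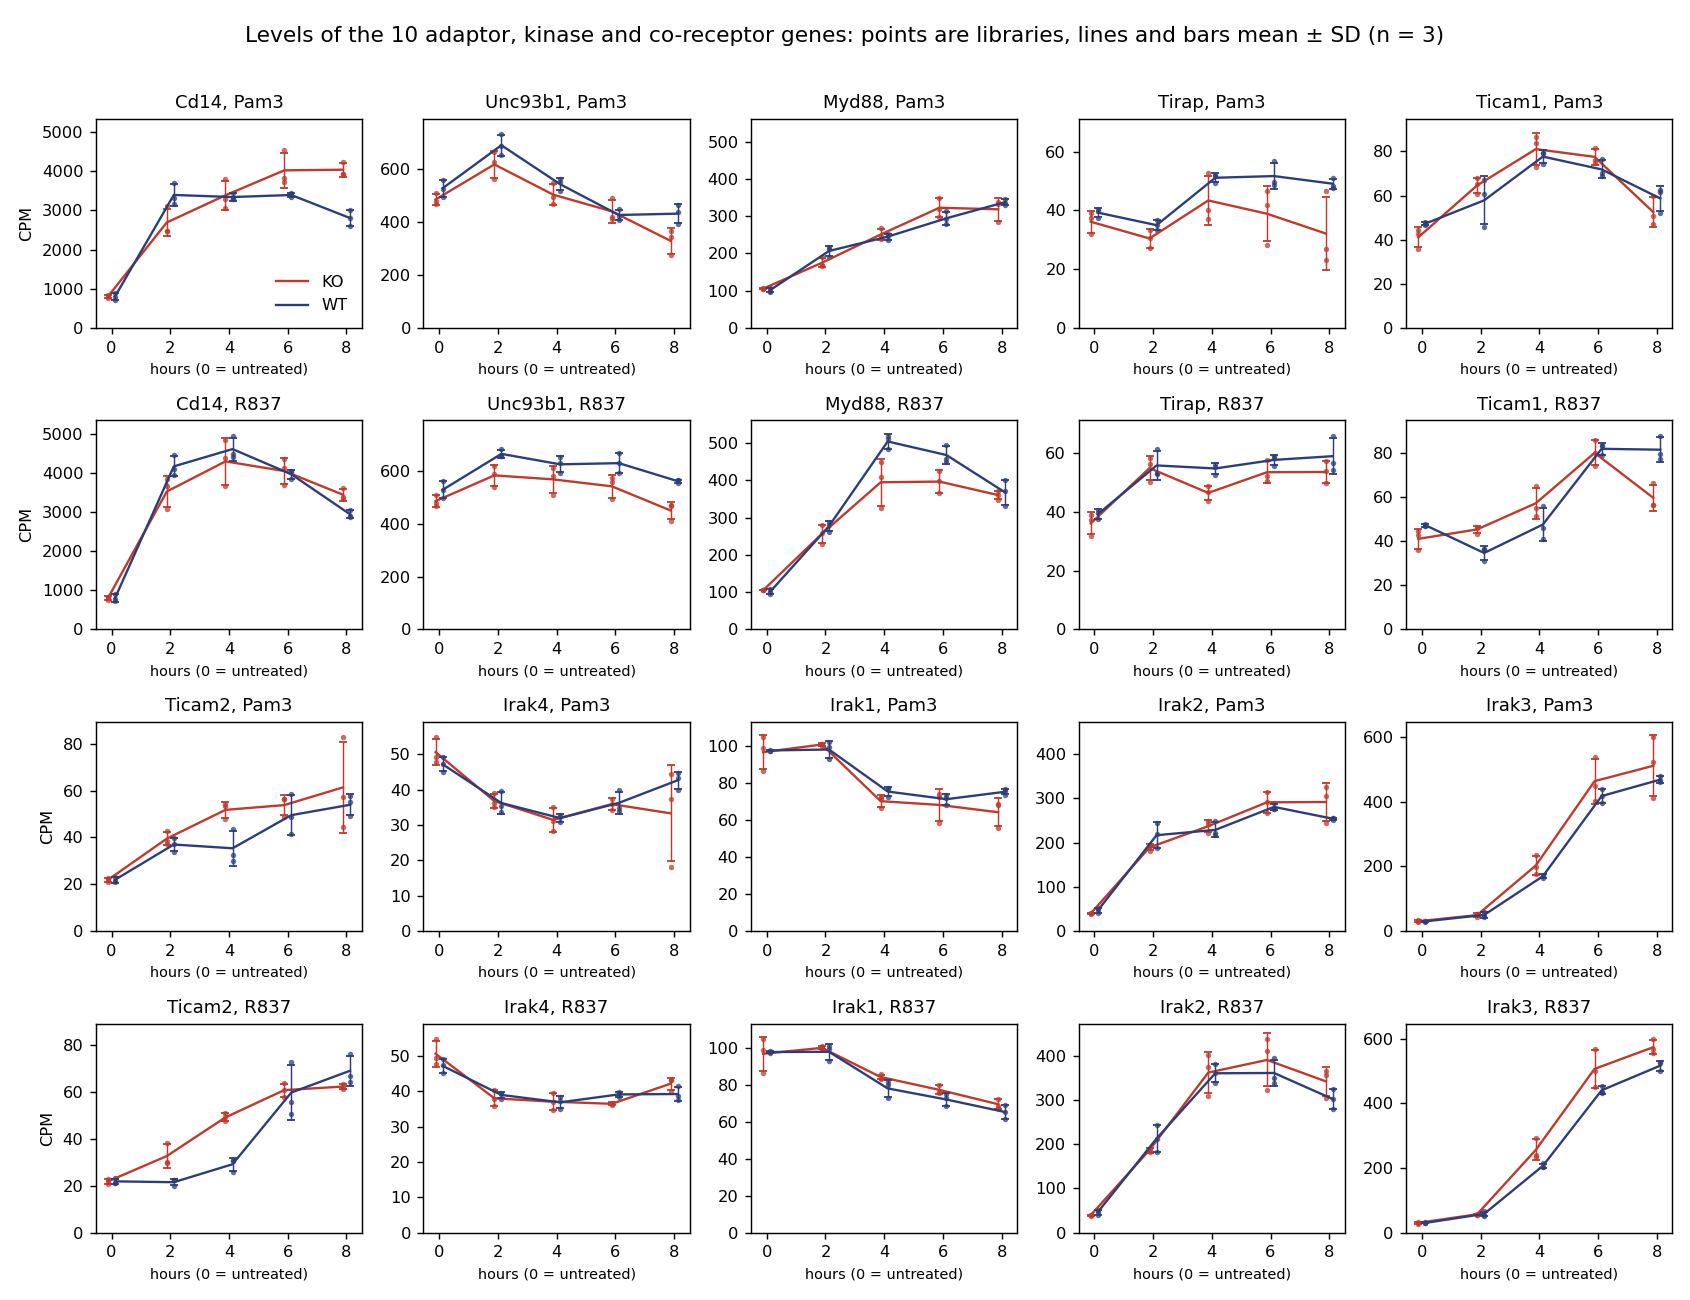
CPM (y axis, each row from 0) against hours of ligand (x axis, 0 for untreated) for the 10 genes, with 3 libraries per group as points and mean ± SD as lines and bars, KO drawn left of WT. Irak3 reaches its highest means at 8 h, 574 CPM in KO and 517 CPM in WT cells with R837, while Irak1 falls from 4 h on.

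Either ligand raised most of the family. In KO cells 7, 6, 6 and 6 of the 10 rose after 2, 4, 6 and 8 h of Pam3, and 1, 2, 2 and 3 fell, where 39.8, 52.5, 57.0 and 61.5% of all tested genes passed, 21.3, 26.6, 28.1 and 29.6% upward and 18.5, 25.9, 28.9 and 31.9% downward. With R837 7, 8, 7 and 7 rose and 1, 2, 2 and 1 fell in KO cells, where 43.4, 52.9, 59.0 and 61.0% of all genes passed, 22.8, 25.5, 28.5 and 29.6% upward and 20.7, 27.4, 30.5 and 31.4% downward. In WT cells 7, 7, 7 and 6 rose and 1, 2, 3 and 2 fell with Pam3, where 41.0, 49.0, 53.5 and 52.2% of all genes passed. Of all genes 22.1, 25.3, 26.8 and 26.3% rose and 18.9, 23.7, 26.7 and 25.9% fell at these times. With R837 6, 7, 8 and 7 rose and 1, 2, 1 and 1 fell in WT cells, where 42.0, 53.8, 59.2 and 57.3% of all genes passed, 22.2, 26.4, 28.9 and 28.3% upward and 19.7, 27.4, 30.3 and 29.1% downward. The members' median log2 difference in WT cells was 0.56 at 2 h and 0.81 at 8 h of Pam3, and 0.42 and 1.22 at the same times of R837, where the median over all genes was between -0.06 and 0.03. Each genotype's 8 comparisons share its 3 untreated libraries. Cd14, Irak2, Irak3 and Myd88 rose in all 8 treated groups of both genotypes.

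Myd88 (ENSMUSG00000032508, chromosome 9, 119335934 to 119341411, minus strand, GRCm38) encodes the adaptor at the head of the Myddosome. Its gene span overlaps that of Acaa1a on the other strand, whose counts reached 2515 in a library. Slc22a14, which it overlaps on the same strand, had 0 counts. Whether counting used strand is not stated in the sources used here. Myd88 rose with both ligands and peaked at 4 to 6 h of R837. After 4 h of R837 the KO libraries had 408, 327 and 449.8 CPM, against 105, 105 and 106 CPM in untreated KO libraries. The WT libraries had 483, 511 and 519.6 CPM after 4 h of R837, against 100.0, 96.4 and 108 CPM untreated. Treated and untreated libraries were far apart in both genotypes. The log2 differences from untreated in WT cells were 1.02 ± 0.09, 1.27 ± 0.09, 1.53 ± 0.09 and 1.73 ± 0.09 at 2, 4, 6 and 8 h of Pam3 and 1.45 ± 0.09, 2.31 ± 0.09, 2.20 ± 0.09 and 1.86 ± 0.09 at those times of R837 (edgeR adjusted p from 1.86e-25 to 2.64e-13). Under Pam3 the level went on rising, and at 8 h it was 0.46 ± 0.09 log2 above 4 h (edgeR adjusted p = 5.03e-05), whereas under R837 the 8 h level lay below that at 4 h, with -0.46 ± 0.09 log2 (edgeR adjusted p = 5.09e-05). Myd88 averaged 175 ± 12.5, 251 ± 15.3, 322 ± 25.02 and 318 ± 30.1 CPM at the 4 times of Pam3 in KO cells and 206 ± 13.5, 245 ± 7.79, 294 ± 17.6 and 337 ± 8.27 CPM in WT cells (SD, n = 3 each). With R837 the averages were 257 ± 24.8, 395 ± 62.3, 397 ± 29.8 and 361 ± 11.8 CPM in KO and 277 ± 13.7, 504 ± 19.2, 468 ± 24.8 and 368 ± 33.9 CPM in WT cells.

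Tirap (ENSMUSG00000032041, chromosome 9, 35184551 to 35200291, minus strand), the sorting adaptor, gave small differences. In WT cells it rose at 4 and 6 h of Pam3 and at all 4 times of R837. It averaged 30.5 ± 3.11, 43.4 ± 8.31, 38.9 ± 9.45 and 32.2 ± 12.6 CPM at 2, 4, 6 and 8 h of Pam3 in KO cells and 35.0 ± 1.72, 51.2 ± 1.48, 51.7 ± 4.50 and 49.1 ± 1.69 CPM in WT cells, beside 36.2 ± 3.71 CPM in untreated KO and 39.3 ± 1.62 CPM in untreated WT cells. With R837 it averaged 55.0 ± 4.20, 46.5 ± 2.47, 53.6 ± 3.84 and 53.7 ± 3.78 CPM in KO and 55.9 ± 4.91, 54.9 ± 1.99, 57.8 ± 1.76 and 59.1 ± 6.14 CPM in WT cells. The highest of the WT log2 differences was 0.59 ± 0.15 at 8 h of R837 (edgeR adjusted p = 0.000676). In KO cells Tirap rose at each time of R837, with 0.60 ± 0.15, 0.36 ± 0.15, 0.57 ± 0.15 and 0.57 ± 0.15 log2, and at no time of Pam3 did it pass, with -0.25 ± 0.15, 0.26 ± 0.15, 0.10 ± 0.15 and -0.17 ± 0.15 log2. Its gene body overlaps that of Srpr on the other strand, and whether counting used strand is not stated in any source used here. Several of these small rises did not hold when 1 library was left out. At 4 h of Pam3 in WT cells the rise passed in 1 of the 6 such fits, the one without WT Pam3 4 h replicate 1, and the other 5 gave edgeR adjusted p from 0.0627 to 0.1002. At 6 h of Pam3 in WT cells it was lost without WT Pam3 6 h replicate 2, WT untreated replicate 1 or WT untreated replicate 2 (edgeR adjusted p = 0.0998, 0.0617 and 0.0751), and at 4 h of R837 in KO cells it passed only without KO R837 4 h replicate 1, with edgeR adjusted p up to 0.274 in the other 5 fits.

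Ticam1 (ENSMUSG00000047123, chromosome 17, 56269319 to 56276786, minus strand), which encodes TRIF, responded at different times to the ligands. After 2 h of R837 the WT libraries had 31.1, 36.6 and 36.4 CPM, against 47.0, 46.9 and 48.0 CPM untreated, so all 3 were lower. The log2 difference was -0.45 ± 0.11 (edgeR adjusted p = 0.000968). At 6 h of R837 the WT libraries stood at 83.1, 83.7 and 79.0 CPM, all above the untreated ones, with a log2 ratio of 0.79 ± 0.11 (edgeR adjusted p = 3.6e-08). Under Pam3 the rise was earlier, with 0.29 ± 0.11, 0.72 ± 0.11, 0.60 ± 0.11 and 0.31 ± 0.11 log2 at 2, 4, 6 and 8 h. The small rises at 2 and 8 h of Pam3 (edgeR adjusted p = 0.0318 and 0.0163) did not hold when single libraries were left out. At 2 h of Pam3 the rise passed only without WT Pam3 2 h replicate 2, and the other 5 fits gave edgeR adjusted p from 0.0658 to 0.289. At 8 h it was lost without WT Pam3 8 h replicate 1 or 3 or WT untreated replicate 2 (edgeR adjusted p = 0.0555, 0.0623 and 0.108). In KO cells the rise at 8 h of Pam3 was lost without KO Pam3 8 h replicate 1 or KO untreated replicate 2 (edgeR adjusted p = 0.0705 and 0.131). At 8 h of R837 the KO log2 difference was 0.54, and 0.35 without KO untreated replicate 2. Ticam1 averaged 64.6 ± 3.49, 81.1 ± 7.19, 77.6 ± 3.74 and 52.5 ± 6.68 CPM at the 4 times of Pam3 in KO cells and 57.8 ± 10.9, 77.7 ± 2.82, 71.9 ± 4.10 and 58.7 ± 5.79 CPM in WT cells. With R837 the averages were 45.4 ± 1.65, 57.2 ± 7.06, 80.1 ± 5.70 and 59.7 ± 5.85 CPM in KO and 34.7 ± 3.13, 47.6 ± 7.53, 81.9 ± 2.59 and 81.5 ± 5.58 CPM in WT cells, beside 41.1 ± 4.54 CPM in untreated KO cells and 47.3 ± 0.619 CPM in untreated WT cells.

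Ticam2 (ENSMUSG00000056130, chromosome 18, 46557291 to 46574533, minus strand), the bridging adaptor TRAM, rose late and furthest with R837 in WT cells. Its gene span overlaps that of Tmed7 on the same strand, and overlap of their exons was not checked. Reads may be split between these genes, so the level of Ticam2 is uncertain. Its WT libraries had 21.2, 21.3 and 23.3 CPM untreated, 22.3, 20.02 and 22.3 CPM at 2 h of R837 and 67.0, 64.1 and 76.3 CPM at 8 h. The 2 h and untreated libraries overlapped, and those at 8 h were all higher. Log2 differences from untreated WT cells were -0.02 ± 0.15, 0.42 ± 0.15, 1.45 ± 0.15 and 1.66 ± 0.15 at 2, 4, 6 and 8 h of R837 and 0.75 ± 0.15, 0.69 ± 0.15, 1.18 ± 0.15 and 1.298 ± 0.15 at those times of Pam3. The largest of them had an edgeR adjusted p of 1.92e-13. The rise at 4 h of R837 was lost without WT R837 4 h replicate 1, WT R837 4 h replicate 3 or WT untreated replicate 2, with edgeR adjusted p of 0.0502, 0.0536 and 0.118. In KO cells Ticam2 averaged 39.5 ± 2.91, 51.8 ± 3.53, 53.8 ± 4.38 and 61.4 ± 19.6 CPM at the times of Pam3 and 32.7 ± 4.97, 49.3 ± 1.68, 60.9 ± 2.81 and 62.4 ± 1.10 CPM at those of R837, beside 21.9 ± 0.956 CPM untreated. WT cells averaged 37.0 ± 2.87, 35.4 ± 7.39, 49.5 ± 8.69 and 53.9 ± 4.51 CPM with Pam3 and 21.6 ± 1.33, 29.2 ± 2.72, 59.8 ± 11.7 and 69.2 ± 6.32 CPM with R837, beside 21.9 ± 1.19 CPM untreated.

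The 4 IRAK genes split into a falling and a rising pair. Irak4 (ENSMUSG00000059883, chromosome 15, 94543643 to 94581815, plus strand) encodes the kinase that opens the cascade, and Irak1 (ENSMUSG00000031392, chromosome X, 74013914 to 74023918, minus strand) the one it acts on. Irak1 did not pass at 2 h and fell at 4, 6 and 8 h of either ligand in both genotypes. The KO libraries had 68.2, 55.6 and 69.0 CPM of Irak1 at 8 h of Pam3, against 105, 86.5 and 99.0 CPM untreated. The WT libraries had 68.8, 65.1 and 61.7 CPM at 8 h of R837, against 97.3, 98.1 and 97.6 CPM untreated. Neither pair of groups overlapped, and these log2 differences were -0.59 ± 0.08 in KO and -0.58 ± 0.08 in WT cells (edgeR adjusted p = 6.07e-09 and 9.32e-09). Irak1 averaged 101 ± 0.665, 70.2 ± 3.15, 68.2 ± 8.67 and 64.3 ± 7.52 CPM at 2, 4, 6 and 8 h of Pam3 in KO cells and 98.2 ± 4.84, 75.5 ± 2.55, 71.3 ± 2.88 and 75.3 ± 1.41 CPM in WT cells. With R837 it averaged 99.9 ± 0.871, 84.2 ± 1.29, 77.2 ± 2.42 and 69.5 ± 2.70 CPM in KO and 97.8 ± 4.26, 78.0 ± 4.65, 72.0 ± 3.31 and 65.2 ± 3.58 CPM in WT cells. Without KO untreated replicate 2 the KO falls were -0.34 at 4 h and -0.49 at 6 h of R837, beside -0.20 and -0.33 log2 with it. Of these falls, that at 4 h of R837 in KO cells was lost without KO R837 4 h replicate 1 or 3 (edgeR adjusted p = 0.0613 and 0.0597).

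In each genotype Irak4 was highest untreated, with 50.6 ± 3.69 CPM in untreated KO cells and 47.2 ± 2.04 CPM in untreated WT cells. It averaged 36.8 ± 2.10, 31.5 ± 3.35, 35.9 ± 1.62 and 33.3 ± 13.6 CPM at the 4 times of Pam3 in KO cells and 36.2 ± 3.17, 32.0 ± 1.14, 36.3 ± 3.14 and 42.7 ± 2.47 CPM in WT cells. With R837 the averages were 38.0 ± 2.28, 37.1 ± 2.35, 36.5 ± 0.394 and 42.2 ± 1.73 CPM in KO and 39.0 ± 0.916, 36.9 ± 1.68, 39.1 ± 0.636 and 39.2 ± 2.05 CPM in WT cells. The fall passed in 7 of 8 treated groups in KO and in 4 of 8 in WT cells, and no interaction test of Irak4 between genotypes passed. At 8 h of Pam3 the KO mean includes the library that stood apart, at 18.1 CPM of Irak4, and the log2 difference from untreated was -0.60 ± 0.14 with it and -0.31 without it (edgeR adjusted p = 0.000173 and 0.00314). Its lowest log2 differences were -0.69 ± 0.14 in KO and -0.56 ± 0.14 in WT cells, both at 4 h of Pam3 (edgeR adjusted p = 3.75e-05 and 0.000561). The WT fall at 2 h of Pam3 was lost without WT Pam3 2 h replicate 1 or 3 or WT untreated replicate 3 (edgeR adjusted p = 0.0856, 0.0597 and 0.0634). At 6 h of Pam3 it was lost without WT Pam3 6 h replicate 1 or 3 or WT untreated replicate 3 (edgeR adjusted p = 0.0682, 0.0548 and 0.0682), and at 4 h of R837 without WT R837 4 h replicate 3 or WT untreated replicate 1 or 3 (edgeR adjusted p = 0.0812, 0.0781 and 0.109). Irak4 overlaps Twf1 on the other strand.

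Irak2 (ENSMUSG00000060477, chromosome 6, 113638467 to 113695026, plus strand), the IRAK tied to sustained signalling, rose within 2 h. The KO libraries had 438, 323 and 411 CPM at 6 h of R837, the highest group, against 40.7, 40.2 and 38.7 CPM untreated. The WT libraries had 338, 351 and 395 CPM, against 40.8, 46.8 and 52.1 CPM untreated. Treated libraries lay far above untreated ones in both genotypes. From untreated WT cells the log2 differences were 2.22 ± 0.12, 2.30 ± 0.12, 2.59 ± 0.12 and 2.45 ± 0.12 at 2, 4, 6 and 8 h of Pam3 and 2.19 ± 0.12, 2.95 ± 0.12, 2.96 ± 0.12 and 2.70 ± 0.12 at those times of R837. Among these the largest edgeR adjusted p was 7.37e-21. The averages were 189 ± 6.68, 237 ± 14.1, 291 ± 23.2 and 292 ± 42.9 CPM with Pam3 in KO cells and 217 ± 28.9, 229 ± 16.8, 281 ± 7.59 and 254 ± 2.65 CPM in WT cells. With R837 Irak2 averaged 187 ± 5.63, 362 ± 47.3, 391 ± 60.0 and 342 ± 32.4 CPM in KO and 213 ± 31.2, 361 ± 20.5, 361 ± 29.9 and 302 ± 22.7 CPM in WT cells.

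Irak3 (ENSMUSG00000020227, chromosome 10, 120141648 to 120202130, minus strand), the braking member, had the widest range of the 10 genes and stood higher at 8 h than at 4 h. The KO libraries had 598, 556 and 567 CPM at 8 h of R837, against 30.0, 28.1 and 33.1 CPM untreated. The WT libraries had 524, 499 and 527 CPM, against 31.8, 30.4 and 28.5 CPM untreated. At that time even the lowest treated library was many times the highest untreated one in either genotype. Log2 differences from untreated WT cells were 0.73 ± 0.12, 2.49 ± 0.12, 3.79 ± 0.13 and 3.95 ± 0.13 at 2, 4, 6 and 8 h of Pam3 and 0.94 ± 0.12, 2.77 ± 0.12, 3.86 ± 0.13 and 4.10 ± 0.13 at those times of R837, with edgeR adjusted p from 3.85e-29 to 2.06e-06. At 8 h Irak3 was above 4 h in WT cells by 1.47 ± 0.12 log2 with Pam3 and 1.32 ± 0.12 log2 with R837 (edgeR adjusted p = 1e-13 and 1.85e-12). It averaged 49.4 ± 5.47, 203 ± 28.9, 464 ± 69.5 and 511 ± 94.0 CPM with Pam3 in KO cells and 50.0 ± 9.04, 169.6 ± 5.92, 418 ± 21.4 and 468 ± 10.5 CPM in WT cells. With R837 the averages were 56.8 ± 2.02, 256 ± 32.7, 507 ± 59.5 and 574 ± 21.6 CPM in KO and 58.1 ± 7.26, 207 ± 7.09, 440.2 ± 12.2 and 517 ± 15.4 CPM in WT cells. Irak3 overlaps Tmbim4 on the other strand, whose counts reached 3450 in a library.

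Per kilobase of exon the IRAK genes changed their order with time. In untreated cells Irak1 led, at 24.5 CPM per kb in KO and 24.7 CPM per kb in WT cells, and Irak3 stood at 9.44 and 9.39 CPM per kb. At 2 h of R837 Irak2 led at 58.5 CPM per kb in KO and 66.6 CPM per kb in WT cells. At 8 h of R837 Irak3 led at 178 and 161 CPM per kb in KO and WT cells, ahead of Irak2 at 107 and 94.6 CPM per kb. By then Irak1 was at 17.6 and 16.5 CPM per kb and Irak4 at 8.86 and 8.24 CPM per kb in KO and WT cells. Pam3 gave the same order at 8 h, with Irak3 at 159 and 146 and Irak2 at 91.4 and 79.6 CPM per kb in KO and WT cells.

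**Figure D2:**
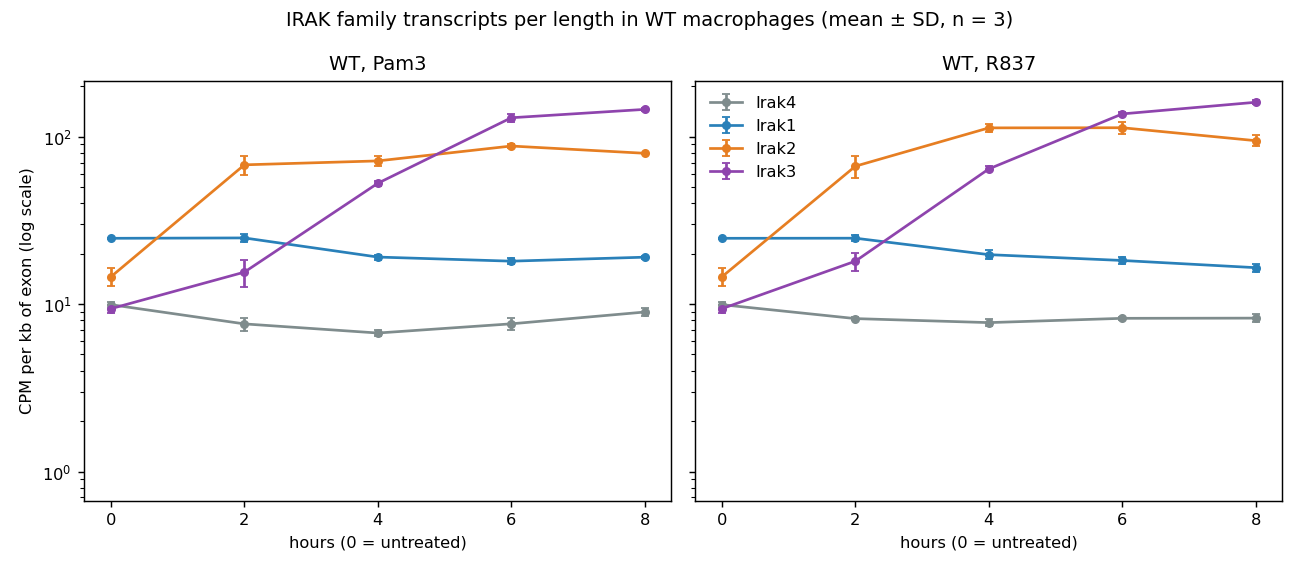
CPM per kilobase of exon (log y axis) against hours of ligand (x axis, 0 for untreated) for the 4 IRAK genes in WT cells. Points and bars are group mean ± SD. Irak1 is highest at 0 h, Irak2 at 2 h and Irak3 at 8 h with both ligands.

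Cd14 (ENSMUSG00000051439, chromosome 18, 36725067 to 36726798, minus strand), the surface co-receptor, had the highest CPM per kb of the 10 in all 18 groups and rose early. After 4 h of R837 the KO libraries had 4378, 3656 and 4833 CPM, against 759, 817 and 835 CPM untreated. The WT libraries had 4941, 4473 and 4396 CPM at that time, against 902, 783 and 721 CPM untreated. All treated libraries of either genotype were above all untreated ones. In KO cells the log2 differences from untreated were 1.74 ± 0.10, 2.07 ± 0.10, 2.32 ± 0.10 and 2.33 ± 0.10 at 2, 4, 6 and 8 h of Pam3. In WT cells they were 2.08 ± 0.10, 2.06 ± 0.10, 2.08 ± 0.10 and 1.80 ± 0.10 at those times of Pam3 and 2.37 ± 0.10, 2.52 ± 0.10, 2.30 ± 0.10 and 1.87 ± 0.10 with R837. Among the WT values the largest edgeR adjusted p was 4.02e-20. Cd14 averaged 2689 ± 356, 3383 ± 371, 4019.6 ± 443 and 4036 ± 180.2 CPM with Pam3 in KO and 3392 ± 271, 3339 ± 92.9, 3391 ± 48.0 and 2803 ± 204 CPM in WT cells. With R837 it averaged 3519 ± 402, 4289 ± 594, 4043 ± 340.3 and 3439 ± 155 CPM in KO and 4161 ± 256, 4603 ± 295, 3961 ± 112 and 2939.8 ± 98.8 CPM in WT cells.

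Unc93b1 (ENSMUSG00000036908, chromosome 19, 3935186 to 3949340, plus strand), the escort of TLR7 and its relatives, went up and then down with Pam3. Its levels in WT libraries were 528, 497 and 562 CPM untreated, 688, 653 and 733 CPM at 2 h of Pam3 and 465, 393 and 439.6 CPM at 8 h. The libraries at 2 h lay above the untreated ones and those at 8 h below them. In KO cells the log2 differences from untreated were 0.35 ± 0.09, 0.05 ± 0.09, -0.14 ± 0.09 and -0.56 ± 0.09 at 2, 4, 6 and 8 h of Pam3 and 0.26 ± 0.09, 0.23 ± 0.09, 0.16 ± 0.09 and -0.11 ± 0.09 at those times of R837. In WT cells they were 0.39 ± 0.09, 0.04 ± 0.09, -0.31 ± 0.09 and -0.29 ± 0.09 at 2, 4, 6 and 8 h of Pam3 and 0.33 ± 0.09, 0.24 ± 0.09, 0.25 ± 0.09 and 0.09 ± 0.09 at those times of R837. The WT rise at 2 h and the fall at 6 h of Pam3 had edgeR adjusted p of 0.000393 and 0.00337. It averaged 619 ± 52.5, 505 ± 38.8, 441 ± 43.1 and 329 ± 48.7 CPM with Pam3 in KO and 692 ± 40.2, 544 ± 23.0, 427 ± 19.9 and 433 ± 36.0 CPM in WT cells, beside 486 ± 22.1 CPM in untreated KO and 529 ± 32.3 CPM in untreated WT cells. With R837 it averaged 584 ± 40.03, 568 ± 52.1, 542 ± 42.3 and 451 ± 33.5 CPM in KO and 665 ± 16.3, 625 ± 30.9, 629.8 ± 37.3 and 562 ± 5.50 CPM in WT cells.

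The smaller changes of Unc93b1 depended on single libraries. Without WT untreated replicate 2 the WT rises at 2, 4 and 6 h of R837 had edgeR adjusted p of 0.0585, 0.349 and 0.376. Those at 4 and 6 h were also lost without WT R837 4 h replicate 3 (0.0779 for the 4 h rise) and WT R837 6 h replicate 3 (0.0728 for the 6 h rise). The WT fall at 8 h of Pam3 was lost without WT Pam3 8 h replicate 2 or WT untreated replicate 3 (edgeR adjusted p = 0.0554 and 0.0545). In KO cells the Unc93b1 rise at 2 h of R837 was lost without KO R837 2 h replicate 3 or KO untreated replicate 2 or 3 (edgeR adjusted p = 0.0819, 0.122 and 0.10). The KO rise at 4 h of R837 passed only without KO R837 4 h replicate 2, and the other 5 fits gave edgeR adjusted p from 0.0847 to 0.291.

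Levels over the 18 groups could be ordered only coarsely. In the order of mean level, the 17 pairs of neighbouring groups were compared by whether all libraries of one lay above all of the next. Irak3 had 6 such separated pairs, Myd88 5, Irak2 4, Ticam2 3, Cd14, Irak1 and Ticam1 2 each, Irak4 and Unc93b1 1 each and Tirap 0. The highest group mean of Irak3, KO cells at 8 h of R837, was 19.0 times its lowest, untreated WT cells, at 574 and 30.2 CPM. The same ratio was 9.80 for Irak2, 5.74 for Cd14, 4.97 for Myd88, 3.21 for Ticam2, 2.36 for Ticam1, 2.10 for Unc93b1, 1.94 for Tirap, 1.61 for Irak4 and 1.57 for Irak1. Irak3 led with KO and then WT cells at 8 h of R837, whose libraries did not overlap. Myd88 and Cd14 were highest in WT cells at 4 h of R837, Ticam1 in WT cells at 6 h, Ticam2 and Tirap in WT cells at 8 h of R837, and Unc93b1 in WT cells at 2 h of Pam3. Irak2 was highest in KO cells at 6 h of R837, Irak1 in KO cells at 2 h of Pam3 and Irak4 in untreated KO cells. Most of these leading groups overlapped with the next group in the order, and those of Irak3 and Ticam2 did not.

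Between times in WT cells, 4 members rose and 2 fell at 4 h against 2 h of Pam3, where 34.5% of all genes passed (17.6% upward, 17.0% downward), and 4 rose and 3 fell at 8 h against 4 h, where 28.8% passed (13.6% upward, 15.2% downward). With R837 5 rose and 1 fell at 4 h against 2 h (31.4% of all genes, 15.6% upward and 15.8% downward), and 3 rose and 3 fell at 8 h against 4 h (33.5%, 16.4% upward and 17.1% downward). With R837 Myd88, Cd14 and Irak1 were lower at 8 h than at 4 h, with log2 differences of -0.46 ± 0.09, -0.65 ± 0.10 and -0.26 ± 0.08, while Irak3, Ticam2 and Ticam1 were higher, with 1.32 ± 0.12, 1.24 ± 0.15 and 0.78 ± 0.11. With Pam3 the members that were higher at 8 h than at 4 h were Irak3, Ticam2, Myd88 and Irak4, and the last of these had a log2 difference of 0.42 ± 0.14. That call for Irak4 was lost without WT Pam3 4 h replicate 1 or WT Pam3 8 h replicate 2 (edgeR adjusted p = 0.0609 and 0.0617). Of the rises at 4 h against 2 h, that of Myd88 with Pam3 was lost without WT Pam3 2 h replicate 1, WT Pam3 4 h replicate 1 or WT Pam3 4 h replicate 3 (edgeR adjusted p = 0.133, 0.0780 and 0.0552), that of Ticam1 with Pam3 without WT Pam3 2 h replicate 2 (0.0526), and that of Ticam2 with R837 without WT R837 2 h replicate 2, WT R837 4 h replicate 1 or WT R837 4 h replicate 3 (0.0507, 0.0646 and 0.0656). The fall of Cd14 at 8 h against 4 h of Pam3 (log2 -0.25 ± 0.10, edgeR adjusted p = 0.047) was lost in all 6 fits that left out a library, with edgeR adjusted p from 0.0595 to 0.198.

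The ligands were compared at matched times with no untreated libraries involved. The ligands bind different receptors and their concentrations are stated in none of the sources used here, so the values describe these cultures only. In KO cells 3, 5, 4 and 2 members were higher with R837 than with Pam3 at 2, 4, 6 and 8 h and 1, 1, 0 and 0 lower, where 10.7, 17.4, 12.1 and 22.8% of all genes passed. Higher genes made up 6.49, 8.73, 7.40 and 11.9% and lower ones 4.20, 8.72, 4.72 and 10.8% of all genes there. In WT cells 2, 3, 3 and 2 were higher and 2, 1, 0 and 0 lower, where 4.78, 21.9, 22.7 and 11.5% of all genes passed, 2.56, 10.4, 12.2 and 7.16% being higher and 2.22, 11.5, 10.5 and 4.37% lower. Myd88 was higher with R837 at 2, 4 and 6 h in both genotypes. In KO cells the log2 ratio of R837 to Pam3 for Myd88 at 4 h was 0.66 ± 0.09 (edgeR adjusted p = 2.58e-07). At that time the WT libraries had 483, 511 and 519.6 CPM of Myd88 with R837 and 251, 236 and 247 CPM with Pam3, which did not overlap, with a log2 ratio of 1.04 ± 0.09 (edgeR adjusted p = 4.73e-13).

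Ticam1 went the other way early. In KO cells its log2 differences were -0.51 ± 0.11 at 2 h and -0.50 ± 0.11 at 4 h. At 2 h the WT libraries had 31.1, 36.6 and 36.4 CPM with R837 and 60.5, 45.8 and 67.2 CPM with Pam3, and all 3 were lower with R837. The log2 differences of Ticam1 in WT cells were -0.74 ± 0.11, -0.71 ± 0.11, 0.19 ± 0.11 and 0.47 ± 0.11 at 2, 4, 6 and 8 h (edgeR adjusted p = 1.36e-05, 2.22e-06, 0.243 and 0.00239), so it was lower with R837 at 2 and 4 h and higher at 8 h. Ticam2 at 2 h gave a log2 ratio of -0.27 ± 0.14 in KO cells, which did not pass, and was lower with R837 in WT cells with -0.78 ± 0.15 (edgeR adjusted p = 0.000348). Tirap was higher with R837 at 2 h, by 0.85 ± 0.15 log2 in KO and 0.68 ± 0.15 log2 in WT cells (edgeR adjusted p = 5.87e-05 and 0.00233). Unc93b1 was higher with R837 at 6 and 8 h, by 0.30 ± 0.09 and 0.45 ± 0.09 log2 in KO cells and 0.56 ± 0.09 and 0.38 ± 0.09 log2 in WT cells. Irak2 was higher at 4 and 6 h, with 0.61 ± 0.11 and 0.42 ± 0.11 in KO and 0.66 ± 0.11 and 0.36 ± 0.11 in WT cells. No comparison of Irak4 between the ligands passed, and the 95% intervals of its log2 difference were 0.06 to 0.62 at 8 h in KO cells and -0.40 to 0.16 at 8 h in WT cells.

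Of the 29 members called between the ligands, 20 passed in all 6 fits that left out a library. At 2 h in KO cells Cd14 was lost without KO R837 2 h replicate 3, KO Pam3 2 h replicate 2 or KO Pam3 2 h replicate 3 (edgeR adjusted p = 0.0741, 0.0525 and 0.0508). At 4 h in KO cells Cd14 was lost without KO R837 4 h replicate 3 or KO Pam3 4 h replicate 2 (0.129 and 0.0650), Irak1 without KO Pam3 4 h replicate 1 (0.0855) and Irak3 without KO R837 4 h replicate 3, KO Pam3 4 h replicate 2 or KO Pam3 4 h replicate 3 (0.270, 0.192 and 0.0714). All 4 calls at 6 h in KO cells were lost without KO R837 6 h replicate 1, with edgeR adjusted p of 0.0808 for Irak2, 0.123 for Myd88, 0.136 for Tirap and 0.0883 for Unc93b1, and each was also lost without at least 1 other library. The highest of those p-values was 0.339, for Tirap without KO Pam3 6 h replicate 3. In WT cells Irak2 at 6 h was lost without WT R837 6 h replicate 3 (0.0897).

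**Figure D3:**
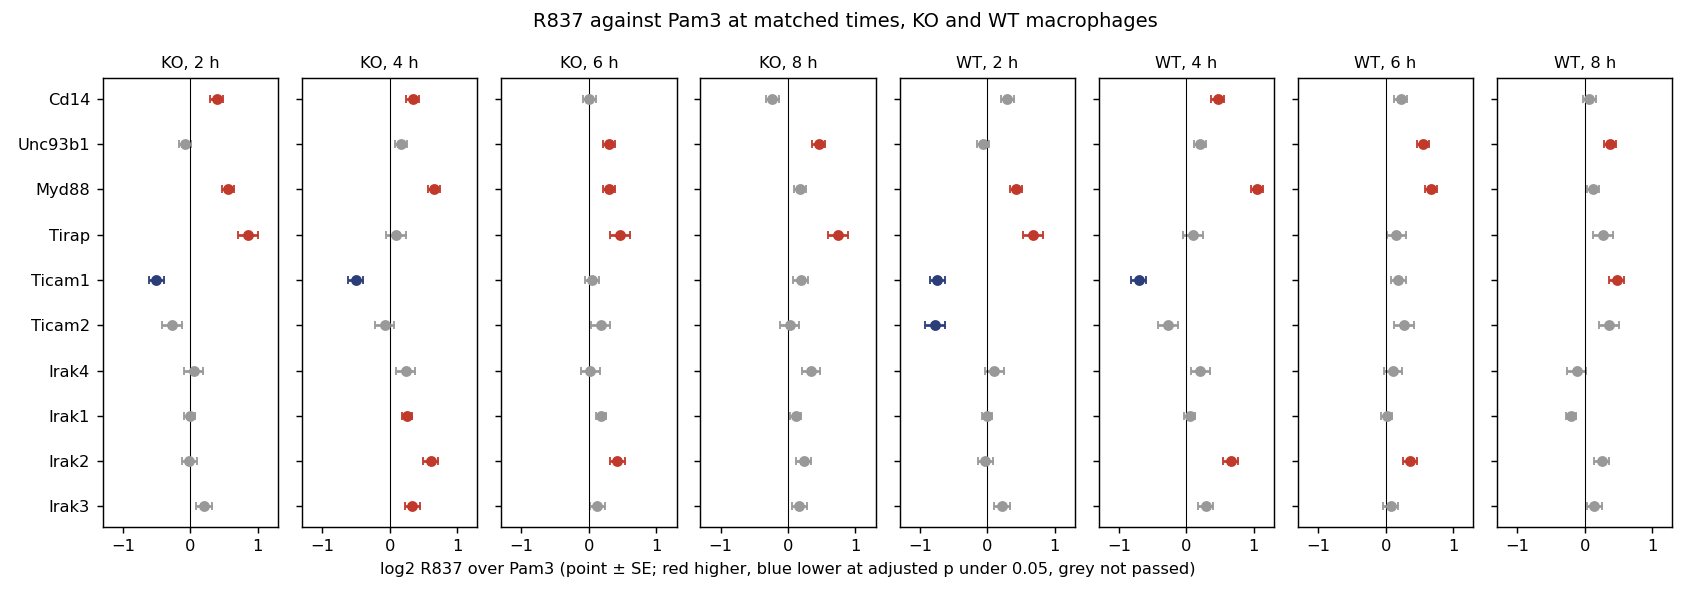
Log2 ratio of R837 to Pam3 (x axis) with bars of ± SE from edgeR for each of the 10 genes. Times are 2, 4, 6 and 8 h, with KO and WT drawn apart and calls marked. Myd88 lies to the right of 0 at 2 to 6 h and Ticam1 to the left at 2 and 4 h in both genotypes.

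Between KO and WT cells 7 of the 10 genes passed at 1 or more treated conditions, and none at rest. In KO against WT cells 0, 1, 0 and 1 members were higher at 2, 4, 6 and 8 h of Pam3 and 0, 0, 0 and 3 lower, where 1.43, 6.43, 7.99 and 23.9% of all genes passed. Of all genes 0.655, 3.33, 3.90 and 11.4% were higher and 0.775, 3.09, 4.09 and 12.4% lower in KO cells at these times. With R837 2, 1, 0 and 0 were higher and 0, 1, 0 and 2 lower, where 2.69, 10.4, 16.5 and 15.9% of all genes passed, 1.47, 3.88, 6.76 and 7.17% being higher and 1.22, 6.57, 9.70 and 8.74% lower. Over the 9 conditions 11 of the 90 comparisons passed, and in all 11 the KO and WT libraries did not overlap. Of these 11 calls, 6 were lost in at least 1 fit that left out a library. Neither the share of all genes without overlap nor that called at 1 or more conditions was computed. With 10 genes, counts of 0 to 4 give little precision beside those shares. At the 3 treated conditions with no call by edgeR, 2 members each had an unadjusted p under 0.05 at 2 h of Pam3, 6 h of Pam3 and 6 h of R837, DESeq2 called 1, 1 and 2, and limma voom called 0, 1 and 1.

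Cd14 at 8 h of Pam3 had the smallest adjusted p of the 11. The KO libraries had 3933, 4244 and 3931 CPM and the WT libraries 3005, 2596 and 2809 CPM. All KO libraries were above all WT libraries, with a log2 ratio of 0.53 ± 0.10 (edgeR adjusted p = 8.26e-05). At 2, 4 and 6 h of Pam3 it was -0.33 ± 0.10, 0.02 ± 0.10 and 0.25 ± 0.10, and none of these passed. With a block for the WT classes of Y-linked transcripts the value at 2 h passed (edgeR adjusted p = 0.0462). That block takes differences between WT classes out of the spread, so its p-values for KO against WT, here and below, can be too small. With R837 the values were -0.24 ± 0.10, -0.10 ± 0.10, 0.03 ± 0.10 and 0.23 ± 0.10 at 2, 4, 6 and 8 h.

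Tirap, Unc93b1 and Irak1 were lower in KO cells at 8 h of Pam3. Tirap had 46.5, 23.0 and 27.0 CPM in KO libraries and 47.8, 51.0 and 48.5 CPM in WT libraries, and the log2 ratio was -0.61 ± 0.15 (edgeR adjusted p = 0.00202). Unc93b1 had 345, 368 and 275 CPM in KO libraries and 465, 393 and 439.6 CPM in WT libraries, and its log2 ratio was -0.39 ± 0.09 (edgeR adjusted p = 0.00105). Irak1 had 68.2, 55.6 and 69.0 CPM in KO libraries and 75.6, 73.8 and 76.6 CPM in WT libraries, with -0.23 ± 0.08 log2 (edgeR adjusted p = 0.0246). The KO and WT libraries of none of these 3 genes overlapped, although single libraries came close. KO Pam3 8 h replicate 3, the library that stood apart, had the group's lowest Irak4 and Unc93b1 and its highest Ticam2, at 18.1, 275 and 82.7 CPM. Without it the log2 differences at 8 h of Pam3 were 0.54 for Cd14, -0.50 for Tirap, -0.28 for Unc93b1 and -0.28 for Irak1, with edgeR adjusted p of 3.23e-04, 0.0266, 0.0316 and 0.0156. The Tirap value was -0.97 without KO Pam3 8 h replicate 1, which had the highest of the 3 KO levels, and -0.42 without replicate 2. Irak4 gave -0.36 ± 0.14 with it (edgeR adjusted p = 0.0509, and 0.0465 with a block for the WT classes of Y-linked transcripts) and -0.06 without it. The Irak1 call was lost without KO Pam3 8 h replicate 2 (log2 -0.14, edgeR adjusted p = 0.201) or WT Pam3 8 h replicate 3 (edgeR adjusted p = 0.0785). At the same condition 6 of 10 core macrophage markers were lower in KO cells and 0 higher, where 12.4% of all genes were lower and 11.4% higher. The part of these markers in the members' differences was not tested.

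Ticam2 was higher in KO cells at 4 h of Pam3 and at 2 and 4 h of R837. Ticam2 at 4 h of R837 had 47.6, 50.9 and 49.3 CPM in KO libraries and 30.7, 26.1 and 30.9 CPM in WT libraries. These groups were well apart, with a log2 ratio of 0.75 ± 0.14 (edgeR adjusted p = 0.000217). It was also higher in KO cells at 2 h of R837 by 0.60 ± 0.15 log2 and at 4 h of Pam3 by 0.55 ± 0.14 log2 (edgeR adjusted p = 0.0134 and 0.013). The Ticam2 call at 2 h of R837 was lost without KO R837 2 h replicate 3 or WT R837 2 h replicate 2 (edgeR adjusted p = 0.137 and 0.0779), and that at 4 h of Pam3 without KO Pam3 4 h replicate 1, WT Pam3 4 h replicate 2 or WT Pam3 4 h replicate 3 (0.0725, 0.115 and 0.0877). Ticam1 was higher in KO cells at 2 h of R837 and lower at 8 h. At 8 h the KO libraries had 56.4, 56.3 and 66.5 CPM of Ticam1 and the WT libraries 77.2, 87.8 and 79.6 CPM, which is a log2 ratio of -0.45 ± 0.11 (edgeR adjusted p = 0.00299). At 2 h the difference was 0.39 ± 0.11 (edgeR adjusted p = 0.0457), and it was lost in all 6 fits that left out a library, with edgeR adjusted p from 0.0692 to 0.282.

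Myd88 was lower in KO cells at 4 h of R837, with 408, 327 and 449.8 CPM in KO libraries and 483, 511 and 519.6 CPM in WT libraries. All 3 KO libraries were below all 3 WT libraries. The log2 difference was -0.35 ± 0.09 (edgeR adjusted p = 0.00471), and it was lost without KO R837 4 h replicate 2 (log2 -0.23, edgeR adjusted p = 0.128). At 6 h it was -0.24 ± 0.09 and did not pass (edgeR adjusted p = 0.0567, and 0.046 with the block for WT classes). Unc93b1 at 8 h of R837 was lower in KO cells with a log2 ratio of -0.32 ± 0.09 (edgeR adjusted p = 0.00961), which was lost without KO R837 8 h replicate 2 (edgeR adjusted p = 0.0808). Irak2, Irak3 and Irak4 passed at none of the 9 conditions. The 95% intervals of the KO to WT log2 ratio at 8 h of R837 were -0.04 to 0.40 for Irak2, -0.08 to 0.38 for Irak3 and -0.17 to 0.38 for Irak4.

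KO and WT libraries also differed in their Y-linked transcripts and B cell markers, as given above, and the part of these in the members' differences was not tested. A fit of only the libraries under 1 CPM of Y-linked transcripts, chosen after seeing the data, leaves 1 WT library per condition, which is assumed to vary like the KO groups that supply the spread. There all 11 log2 differences kept their sign and 0 passed by edgeR (adjusted p from 0.0576 to 0.884), and 8 had an unadjusted p under 0.05. Ticam2 moved most, with 0.24 log2 at 4 h of Pam3 in that fit and 0.55 with all libraries. At 8 h of Pam3 Cd14 gave 0.43 and Unc93b1 -0.49 in that fit, beside 0.53 and -0.39 with all libraries. Ticam2 at 4 h of R837 gave 0.66 beside 0.75, and Myd88 at 4 h of R837 gave -0.41 beside -0.35. In the fit of low libraries 607 genes passed at 8 h of Pam3, against 3577 with all libraries, and 358 at 4 h of R837, against 1564.

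**Figure D4:**
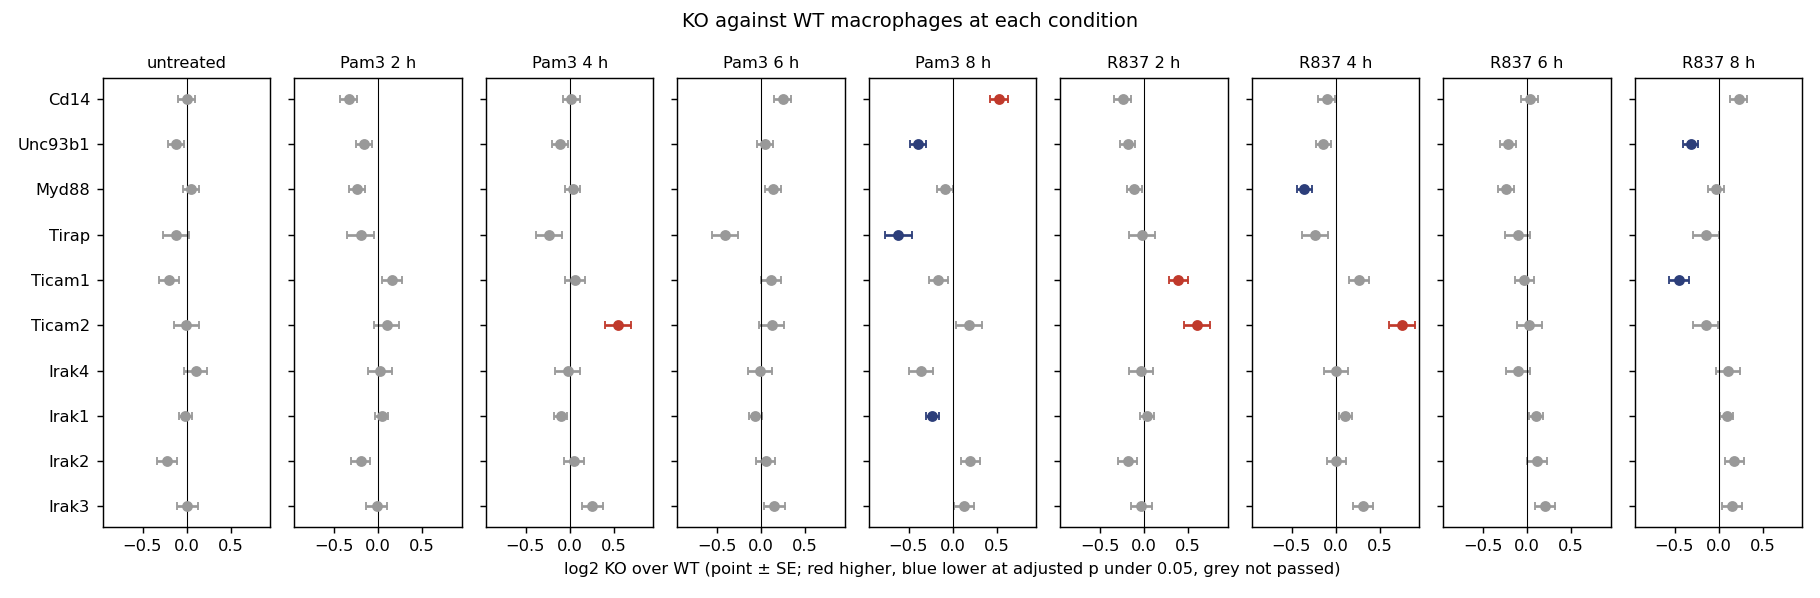
Log2 ratio of KO to WT (x axis) with bars of ± SE from edgeR for the 10 genes at the 9 conditions, with calls marked. Cd14 lies left of 0 at 2 h of Pam3 and at 0.53 at 8 h, while Irak2, Irak3 and Irak4 are unmarked at all conditions.

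Whether the response itself differed between genotypes was tested over the 4 times of each ligand at once. With Pam3 the response of Cd14 differed (edgeR adjusted p = 0.000451), where 4.64% of all genes passed, and at 8 h the response was 0.52 ± 0.14 log2 larger in KO than in WT cells (edgeR adjusted p = 0.0173). With R837 those of Ticam1 and Ticam2 differed (edgeR adjusted p = 0.000727 and 0.00272), where 7.47% of all genes passed. The response of Ticam2 at 4 h of R837 was 0.75 ± 0.21 log2 larger in KO cells (edgeR adjusted p = 0.0266), while for Ticam1 the difference in response was 0.59 ± 0.16 log2 at 2 h and -0.25 ± 0.16 log2 at 8 h of R837, neither of which passed alone. Whether the KO effect differed between the ligands was called for 0 of the 10 by edgeR, where 4.12% of all genes passed. Of these, 2 had an unadjusted p under 0.05, and DESeq2 and limma voom called 1 each. Myd88 was nearest, with an edgeR adjusted p of 0.0535 (0.0342 with the block for WT classes) and KO effects at 4 h of -0.35 ± 0.09 with R837 and 0.03 ± 0.09 with Pam3. All 3 interaction calls passed in each fit that left out a single library, and 0 of them with only the libraries under 1 CPM of Y-linked transcripts.

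The receptors that feed these adaptors also moved. Of 17 listed Toll-like receptors and co-receptors 16 were tested, and at 2 h of Pam3 in WT cells 6 rose and 2 fell, where 41.0% of all genes passed (22.1% upward, 18.9% downward). Tlr2 stood at 1686 ± 158 CPM treated and 67.6 ± 9.34 CPM untreated (log2 4.64 ± 0.14), and Tlr4 at 91.1 ± 4.26 and 252 ± 7.81 CPM (log2 -1.47 ± 0.13). The list's median log2 difference was 0.43 there, beside 0.03 over all genes. In KO against WT cells 0 of the 16 rose and 8 fell at 8 h of Pam3, where 23.9% of all genes passed (12.4% downward), with a median of -0.45 beside -0.05 over all genes. The KO libraries there include replicate 3, which stood apart with counts in 12263 genes. List results at 8 h of Pam3, here and below, were not fitted without it. At 6 h of R837 0 rose and 9 fell, where 16.5% of all genes passed (9.70% downward), with a median of -0.51 beside 0.0014. Core macrophage markers were also lower in KO cells at these conditions, 6 of 10 and 5 of 10 with 0 higher at either, and their part in these counts was not tested. Ly86 (MD-1), the partner of CD180, had 72.4 ± 4.23 CPM in KO and 184 ± 23.9 CPM in WT cells at 6 h of R837, and its log2 ratio was -1.35 ± 0.15 (edgeR adjusted p = 1.94e-09). Tlr3, the receptor served by TICAM1, had 46.6 ± 6.99 CPM in KO and 200.1 ± 12.9 CPM in WT cells (log2 -2.10 ± 0.25, edgeR adjusted p = 3.83e-08). Tlr9, an UNC93B1 client, had 1.43 ± 0.934 and 5.50 ± 1.23 CPM in KO and WT cells at 8 h of Pam3 (log2 -1.95 ± 0.29).

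Of 13 genes for chaperones and handling of TLRs, 5 rose and 4 fell at 2 h of Pam3 in WT cells (41.0% of all genes), with a median log2 difference of 0.09 beside 0.03. Lrrc59, an endoplasmic reticulum protein, rose by 0.72 ± 0.07 log2 there. In KO against WT cells 2 of the 13 rose and 4 fell at 8 h of Pam3 (23.9% of all genes), among them Cnpy3, a TLR chaperone, with -0.43 ± 0.07 log2. The list's median was -0.16 there, beside -0.05. At 6 h of R837 0 rose and 5 fell (16.5% of all genes), with a median of -0.19. Of 8 interleukin 1 family receptors that use MYD88, 4 rose and 0 fell at 2 h of Pam3 in WT cells, where 22.1% of all genes rose (median log2 0.84 beside 0.03). In KO against WT cells 0 rose and 1 fell at 8 h of Pam3 (median log2 -1.08), with the library that stood apart included. Il1r1, the interleukin 1 receptor chain, had 9.70 ± 1.24 CPM treated and 1.78 ± 0.249 CPM untreated in the WT comparison.

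Downstream of the IRAKs, 22 of 23 listed genes were tested, and 15 rose and 4 fell at 2 h of Pam3 in WT cells (41.0% of all genes), with a median log2 difference of 0.52 beside 0.03. Nfkb1, the p50 subunit of NF-kB, rose by 2.81 ± 0.14 log2 and Map3k8 (TPL2), a MAP kinase kinase kinase, by 3.37 ± 0.15 log2. In KO against WT cells 2 of the 22 rose and 3 fell at 8 h of Pam3, a share near the 23.9% of all genes, and 5 rose and 5 fell at 6 h of R837, where 16.5% of all genes passed. Irf5, a transcription factor of the MYD88 pathway, was lower in KO cells at both, with log2 differences of -0.94 ± 0.11 and -0.995 ± 0.11. Of 17 inhibitors of TLR signalling 12 rose and 1 fell at 2 h of Pam3 in WT cells, where 22.1% of all genes rose and 18.9% fell (median log2 2.20), with Nfkbia (IkBa) at 1608 ± 49.7 CPM treated and 44.4 ± 5.42 CPM untreated. In KO against WT cells 6 of the 17 rose and 3 fell at 8 h of Pam3, where 11.4% of all genes rose and 12.4% fell (median log2 0.07). Tnfaip3 (A20) had 1435 ± 299 CPM in KO and 648 ± 50.5 CPM in WT cells (log2 1.15 ± 0.13), and Rab7b 54.8 ± 8.06 and 138 ± 7.09 CPM (log2 -1.33 ± 0.15).

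Genes most like each member were sought among 9237 other genes with a mean of at least 5 CPM, by Pearson's r of the mean log2 CPM over the 18 groups, which share ligands and times. Myd88 was most like Gbp7 (r = 0.982), AW112010 (0.981) and Gbp3 (0.980), of which Gbp7 and Gbp3 are interferon-induced guanylate-binding proteins. Irak2 was most like Gm7229 (0.990), Acod1 (0.986) and Klf7 (0.986), and Acod1 encodes the enzyme that makes itaconate. Irak3 was most like Acsl5 (0.989), Pla2g4a (0.989) and Ncf4 (0.988). Cd14 was most like Cd40 (0.982), Cd69 (0.980) and Tnip1 (0.980), and Unc93b1 most like Lgmn (0.967), a lysosomal protease. Irak1 was most like Cog5 (0.973) and Ticam2 like Gm6180 (0.958). The lowest top values were those of Ticam1 with Pknox1 (0.905), Irak4 with Pank2 (0.900) and Tirap with Tomm34 (0.862). Among the members, Cd14 and Irak2 were most alike (r = 0.948) and Irak1 and Irak3 most opposed (r = -0.918).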

How the data were processed

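RNA of 54 cultures was sequenced as single-end reads after TruSeq v2 preparation, per the labels' protocols. The submitters' processing notes name GSNAP and GRCm38. The authors deposited, library by library, raw exonic read counts for 52636 Ensembl genes, together with exon widths. The deposited widths (other values in the tables, in bases) served for CPM per kb. The deposited RPKM values were not used here. Symbols and positions came from GENCODE M21.

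Labels for genotype, ligand and time gave the 18 groups of 3 libraries. Genes were kept by edgeR's filterByExpr (minimum count 10, minimum total 15), scaled by TMM and tested with edgeR 4.0.16 (R 4.3.3) by quasi-likelihood with 1 coefficient per group and Benjamini-Hochberg adjustment within each comparison at 0.05. Interactions were F-tests over the 4 times. DESeq2 1.42.0, limma 3.58.1, other scaling and filters, replicate blocks and fits without each library were alternatives. A block for the 3 classes of WT libraries by Y-linked transcripts was added after the data were seen, since WT libraries of 1 class deviated together over conditions (r 0.125 to 0.625, against -0.53 to 0.263 between classes). It removes variation between WT cultures that a comparison of genotypes has to be set against, so passes gained with it are weak. Code was checked on simulated counts. CPM rests on 20.03 to 45.89 M counts per library, and p-values measure the spread between libraries.

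The members, gene lists and tests were chosen with earlier results of these data known. Named genes are the 10 members, N4bp1, for each member the 3 most alike genes or the first of them, and for each list up to 4 genes with the smallest p in the comparison described.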

Additional observations from a re-analysis of the deposited data

Results flagged for a closer look

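Cd14, Ticam1 and Ticam2 were singled out because their response to a ligand differed between KO and WT cells by a test of that difference. For Cd14 with Pam3 the edgeR adjusted p over the 4 times was 0.000451, and its KO to WT log2 ratio ran from -0.33 at 2 h to 0.53 at 8 h. For Ticam1 with R837 the edgeR adjusted p was 0.000727, with KO to WT log2 ratios of 0.39 at 2 h and -0.45 at 8 h. For Ticam2 with R837 it was 0.00272, with the largest ratio, 0.75, at 4 h. The gene span of Ticam2 overlaps that of Tmed7 on the same strand, and the part of Tmed7 reads in the Ticam2 values was not tested. With 3 libraries per group, no outlier test was run on single libraries.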

How the results depend on the processing

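Of 204 member results that passed, 0 changed direction under any of the 68 settings tried. With 1 library left out, 63 of 68 KO responses, 56 of 68 WT responses, 20 of 29 differences between ligands, 5 of 11 between genotypes, 20 of 25 between times and 3 of 3 interactions passed each time. DESeq2 kept 203 of the 204, RLE scaling 202, limma voom 204, no filter 192, a stricter filter 204, and fits of only the 2 groups compared kept 184 of 201. Replicate numbers paired libraries only in part. Deviations of same-numbered libraries had a median correlation of 0.23 within WT and 0.129 within KO. Libraries of different numbers had medians of -0.0747 and -0.0843. Single same-numbered pairs went down to -0.581 within WT and -0.689 within KO. A replicate block kept all 204, and a replicate block within genotype all 193 it covered. WT libraries of 1 class of Y-linked transcripts did deviate together (median r 0.322), under changing replicate numbers, and a block for these classes kept all 204 and added 5 calls. Of these, 4 are given beside their results and the other is Irak2, lower at 8 h than at 4 h of R837 in WT cells (log2 -0.26, edgeR adjusted p = 0.0338, against 0.0706 without the block).

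Counts of members that moved by more than 1.5 times are the following, where single-library fits leave out 1 library and number fits all libraries of 1 replicate number, so that 2 per group remain. The libraries that stand apart are KO Pam3 6 h replicate 3 and KO Pam3 8 h replicate 3. For KO against WT at 2 h of Pam3 (0), DESeq2, no filter, the replicate block, the block for WT classes and leaving out the libraries that stand apart each gave 1, single-library fits 0 to 1 and number fits 0. At 4 h of Pam3 (1), libraries low in Y-linked transcripts gave 0, single-library fits 0 to 1 and number fits 0. For Pam3 at 6 h (0), DESeq2, limma voom and no filter each gave 1, and fits of either kind 0 to 1. At 8 h of Pam3 (4), libraries low in Y-linked transcripts gave 0, only the 2 groups 1, single-library fits 3 to 6 and number fits 1 to 5. At 2 h of R837 (2), RLE gave 1, libraries low in Y-linked transcripts 0, single-library fits 0 to 1 and number fits 0. At 4 h of R837 (2), libraries low in Y-linked transcripts gave 0, single-library fits 1 to 3 and number fits 1 to 2. For R837 at 6 h (0), DESeq2 gave 2, RLE, limma voom, the replicate block, the block for WT classes and the stricter filter 1 each, leaving out the libraries that stand apart 2, single-library fits 0 to 1 and number fits 0. At 8 h of R837 (2), libraries low in Y-linked transcripts gave 0, single-library fits 1 to 2 and number fits 0 to 2. For the interactions, Pam3 (1) gave 0 with libraries low in Y-linked transcripts, 1 to 3 in single-library fits and 0 to 2 in number fits. R837 (2) gave 0, 2 to 3 and 0 to 1 in these fits. The KO effect between ligands (0) gave 1 by DESeq2, RLE, limma voom, either replicate block, the block for WT classes or the stricter filter, 0 to 2 in single-library fits and 0 to 1 in number fits. For R837 against Pam3 in KO cells, 6 h (4) gave 2 with no filter, 0 with only the 2 groups, 0 to 4 in single-library fits and 1 to 2 in number fits. At 8 h (2) it gave 0 with only the 2 groups, 4 with the replicate block within genotype, 2 to 3 in single-library fits and 1 to 3 in number fits. In WT cells, R837 against Pam3 at 8 h (2) gave 4 without the libraries that stand apart, 2 to 3 in single-library fits and 0 to 2 in number fits. R837 at 4 h against untreated (9) gave 6 to 9 in single-library and 5 to 9 in number fits, Pam3 at 8 h against 4 h (7) 5 to 6 and 4 to 6, and R837 at 4 h against 2 h (6) 5 to 6 and 3 to 5. The cause was not tested, beyond the smaller number of libraries in fits that leave some out.

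Over all genes, DESeq2 called 242 between untreated KO and WT cells against 132 by edgeR, 386 against 214 at 2 h of Pam3, 610 against 402 at 2 h of R837, 1160 against 694 for the Pam3 interaction and 945 against 617 for the KO effect between ligands. No filter gave 368 between untreated KO and WT cells, 501 at 2 h of Pam3, 636 at 2 h of R837, 1452 for the Pam3 interaction and 1207 for the KO effect between ligands. The block for WT classes gave 274, 421 and 626 at the first 3 of these. With only the 2 groups compared, KO against WT gave 489 at 8 h of Pam3 (against 3577), 523 at 6 h of Pam3 (against 1196), 336 and 710 at 2 h of Pam3 and R837, and in KO cells R837 against Pam3 gave 2491, 840 and 343 at 2, 6 and 8 h (against 1599, 1815 and 3410) and Pam3 at 8 h against untreated 5251 (against 9204). Without the libraries that stand apart KO against WT gave 226 untreated, 404 and 1589 at 2 and 4 h of Pam3 (962 with them at 4 h) and 645 at 2 h of R837. Each group has 3 libraries, so small differences of Tirap, Irak4, Ticam1 and Unc93b1 sit close to the limit of the test, and WT libraries differ in Y-linked transcripts.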
